A study of Mus musculus with 20 samples.

Results

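Genes of 8 mucosal defense proteins, secreted or carrying antibody into secretions, were examined in RNA-seq data of the mouse RPE-choroid: *Ltf*, *Olfm4*, *Clca3b*, *Clca3a2*, *Lcn2*, *Pigr*, *Slpi* and *Pglyrp1*. They were taken by gene symbol from the 24411 genes of the deposited table, and all 8 were found and had at least 5 reads in total. They were selected on lower values under the vitamin A deficient diet in these same libraries, and it is not known in which genotype, so both diet comparisons are given for them as descriptions without a test. The study set out to follow the transcriptome of the RPE-choroid as ocular vitamin A declines, with 4 groups of 5 libraries. WT and *Stra6*-/- mice, which lack the retinol transporter STRA6 from birth, were fed after weaning for 12 weeks either the VAS (vitamin A sufficient) diet at 4 IU/g of vitamin A or the VAD (vitamin A deficient) diet at 0 IU/g. Before weaning every mouse had standard chow, and the labels give the strain of all as C57BL/6, where the methods give the *Stra6*-/- background as C57BL/6J. The *Stra6*-/- mice were bred in the authors' vivarium whereas the WT mice were bought, so breeding source and genotype cannot be told apart. By the study's account each sample is 1 mouse, whose RPE-choroid was pooled from 2 eyecups after dispase treatment and removal of the anterior segment, vitreous and neural retina.

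Wet epithelia such as the conjunctiva, airway and gut coat themselves with a film of mucus, antibodies and antimicrobial proteins. Iron-sequestering proteins, proteins that bind the bacterial cell wall and protease inhibitors are secreted into this film, and the polymeric immunoglobulin receptor carries IgA and IgM across the epithelium into it. Vitamin A maintains mucus-secreting epithelia in general, and keratinization of the ocular surface is a classical sign of its deficiency. Several of these proteins are also stored in neutrophil granules, so their transcripts are known from epithelium as well as from myeloid cells.

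Values were gene counts that the authors divided by a size factor for each library, called normalized values here. The libraries held 13331903 to 21878614 reads, with a median of 17785927. The targeted gene *Stra6* averaged 2591 ± 149 in VAS WT, 986 ± 415 in VAD WT, 629 ± 49.8 in VAS *Stra6*-/- and 2163 ± 154 in the samples labelled VAD *Stra6*-/- (SD, n = 5 each). The last value lies above those of VAD WT and VAS *Stra6*-/-, so that group is named by its label only. *Stra6* is expressed in the RPE, and RPE content differed between the groups as well. Summed RPE markers were at 184934 to 194078 in VAS *Stra6*-/- and 661370 to 715397 in the samples labelled VAD *Stra6*-/-. The part of RPE content in the *Stra6* values was not tested. Replicates 2 and 4 of VAD WT stood apart from replicates 1, 3 and 5, with *Xist* at 10912 and 11767 against 174 to 234, and the diet difference in WT mice is given for both subsets gene by gene. The Y-linked *Ddx3y* was at 75.2 and 80.5 in replicates 2 and 4 and at 1041 to 1133 in replicates 1, 3 and 5. In VAS WT it was at 981 to 1193. *Xist* was at 7.69 to 38.4 in VAS WT and at 15320.2 to 18052 in VAS *Stra6*-/-, so sex and genotype cannot be told apart on the VAS diet. All 5 samples labelled VAD *Stra6*-/- held both *Xist* (3569.8 to 4279.6) and Y-linked *Ddx3y* (741 to 969.7), whereas *Ddx3y* was at 0 to 1.02 in VAS *Stra6*-/-. Sex content and diet therefore cannot be told apart between these groups. Sex content also differed between VAS WT and VAD WT replicates 2 and 4, so it and diet cannot be told apart there either. Transcripts of both sexes were in every labelled library and, less evenly, in the VAD WT libraries. They do not match the study's account of 1 mouse per sample, and this was not resolved.

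The tissue label was checked against marker lists. All 15 RPE markers were detected in every group, with summed normalized values of 163559 to 181400 in VAS WT, 55940 to 114488 in VAD WT, 184934 to 194078 in VAS *Stra6*-/- and 661370 to 715397 in the samples labelled VAD *Stra6*-/-. Markers of the cornea, which the dissection should have removed, were also present. The sum of 10 cornea markers, among them *Krt12*, was 552592 to 696023 in VAS WT and 868747 to 905595 in VAS *Stra6*-/-, but 37418 to 47454 in the samples labelled VAD *Stra6*-/-. In VAD WT it was 408897 and 402641 in replicates 2 and 4 and 1224216 to 1260983 in replicates 1, 3 and 5. The sum of 25 surface epithelium markers ran likewise, at 334440 to 394920 in VAS WT, 225960 to 536070 in VAD WT, 574385 to 596101 in VAS *Stra6*-/- and 21737 to 25446 in the samples labelled VAD *Stra6*-/-. It is not independent of the cornea sum, since both lists hold *Krt14* and *Krt5*, and *Krt5* alone averaged 186569 in VAS WT. The sum of 21 goblet and mucosal markers was 133568 to 146832 in VAS WT, 44084 to 71885 in VAD WT, 102954 to 112303 in VAS *Stra6*-/- and 10262 to 13770 in the samples labelled VAD *Stra6*-/-. The part of these markers in the results below was not tested. In such bulk samples, fewer cells of a type and less RNA per cell cannot be told apart.

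**Figure D1:**
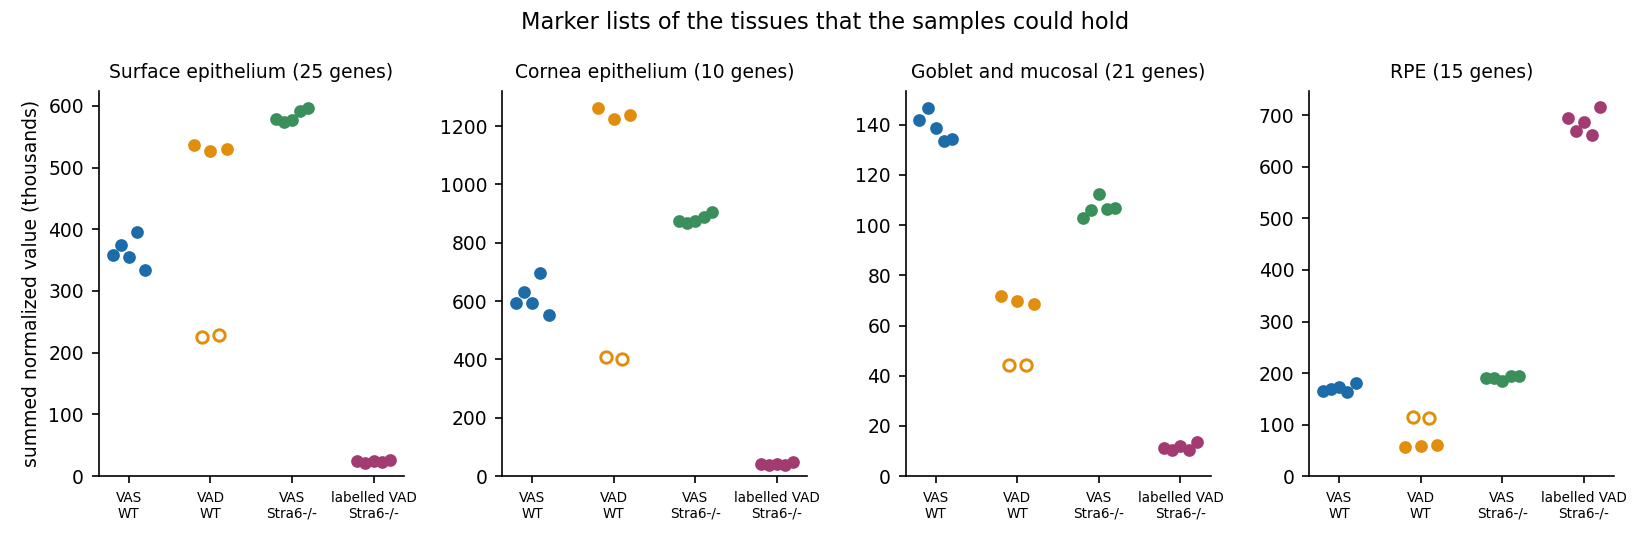
Summed normalized value of 4 marker lists in each library (vertical axis, scaled as its label says), by group. Open circles are VAD WT replicates 2 and 4. Epithelial markers are lowest and RPE markers highest in the samples labelled VAD Stra6-/-.

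Promoter windows of the 8 genes, from 250 bases before to 50 after the start in RefSeq annotation of GRCm38.p6, were searched on both strands for 3 motifs. These were GGGA, any base, TTTCC for NF-κB and TTNNGCAA for C/EBP, factors that drive many mucosal defense genes, and AGGTCA, an element shared by retinoic acid receptors and other nuclear receptors. The NF-κB motif was in 2 of the 8 windows and in 0.411% of 32851 mouse promoter windows. The C/EBP motif was in 4 of the 8 windows and in 10.8% of all, and AGGTCA in 2 of the 8 and in 16.3% of all. *Olfm4* and *Pigr* held none of these letters. A match is a description of letters, not a binding site or a cause, and none of the matches overlapped another. The windows of the iron-binding *Ltf*, of *Clca3b*, of *Pglyrp1* as the most abundant transcript and of *Lcn2*, whose values differed most from the others, are shown 5′ to 3′ on the strand of the gene with the matches in capitals.
Ltf, chr9:111019042-111019341, + strand, TTNNGCAA at -75 and AGGTCA at -46 from the start: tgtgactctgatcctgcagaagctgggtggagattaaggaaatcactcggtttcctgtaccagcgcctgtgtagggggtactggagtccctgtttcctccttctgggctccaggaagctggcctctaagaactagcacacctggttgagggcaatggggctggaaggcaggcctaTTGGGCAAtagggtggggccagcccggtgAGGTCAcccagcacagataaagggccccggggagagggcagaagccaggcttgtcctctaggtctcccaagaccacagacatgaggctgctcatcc
Clca3b, chr3:144849253-144849552, − strand, AGGTCA at -115: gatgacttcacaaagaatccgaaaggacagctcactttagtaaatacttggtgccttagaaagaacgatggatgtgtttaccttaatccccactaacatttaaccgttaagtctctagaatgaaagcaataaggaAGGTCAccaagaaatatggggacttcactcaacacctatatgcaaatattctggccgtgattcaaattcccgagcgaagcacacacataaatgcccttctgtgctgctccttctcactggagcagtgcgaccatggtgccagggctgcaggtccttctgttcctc
Pglyrp1, chr7:18884440-18884739, + strand, the NF-κB motif on the opposite strand at -93: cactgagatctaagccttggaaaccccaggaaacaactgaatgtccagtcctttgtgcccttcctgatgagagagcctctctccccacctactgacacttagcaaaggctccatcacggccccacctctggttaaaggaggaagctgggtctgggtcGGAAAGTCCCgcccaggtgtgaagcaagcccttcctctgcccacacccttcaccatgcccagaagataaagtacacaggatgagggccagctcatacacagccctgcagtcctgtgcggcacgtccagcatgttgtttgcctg
Lcn2, chr2:32387690-32387989, − strand, TTNNGCAA on the opposite strand at -216: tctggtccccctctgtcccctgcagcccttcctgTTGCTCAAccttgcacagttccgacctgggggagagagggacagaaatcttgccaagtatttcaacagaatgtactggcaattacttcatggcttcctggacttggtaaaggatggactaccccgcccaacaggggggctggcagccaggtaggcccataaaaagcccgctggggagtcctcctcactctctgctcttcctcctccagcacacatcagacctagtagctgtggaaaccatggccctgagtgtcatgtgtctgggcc

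In WT mice, all 8 genes had a lower mean on the VAD than on the VAS diet. The difference ranged from 1.44-fold for *Slpi* to 9.60-fold for *Olfm4*, and 5 of the 8 genes (*Ltf*, *Olfm4*, *Clca3b*, *Pigr* and *Pglyrp1*) had no overlap between the groups, against a background of 4.21% lower and 2.13% higher among the 18807 genes tested. In the limma fit over all genes, at a Benjamini-Hochberg adjusted p under 0.05, 5.50% of genes were called lower and 3.29% higher, and among them stood 4 of the 8 as lower (*Ltf*, *Olfm4*, *Clca3b* and *Pglyrp1*) and none as higher. These counts describe how the members were chosen and are no test of them. The median log2 fold change was -1.63 over the 8 genes and 0.00 over all genes, and nothing is read from it either. Fold changes on the log2 scale, with their standard error (SE), here and below are differences of group means of log2(value + 1). The added 1 shrinks the change of low genes, whereas single libraries near 0 can enlarge it. These values can therefore lie on either side of the log2 ratio of the means. For *Clca3b* in WT mice they were -3.18 and -2.64.

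**Figure D2:**
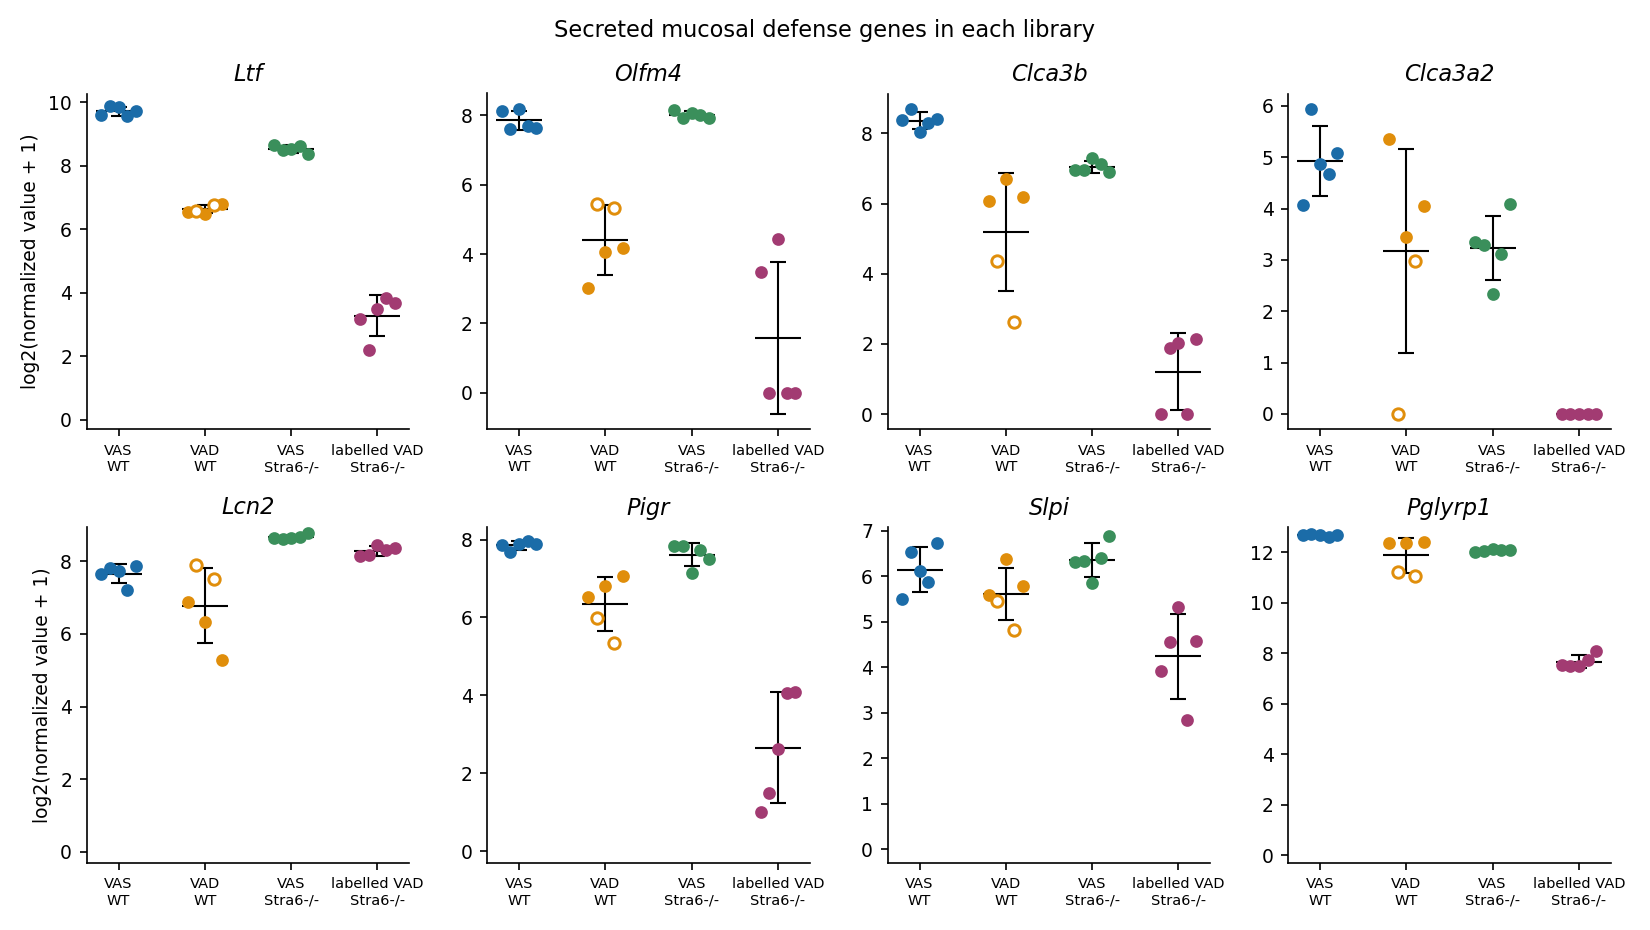
Level of each of the 8 genes as log2(normalized value + 1) (vertical axis) in each of the 20 libraries, by group. Points are libraries, open circles are VAD WT replicates 2 and 4, and bars are the mean and SD over 5 libraries. All genes but Lcn2 are lowest in the samples labelled VAD Stra6-/-.

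The samples labelled VAD *Stra6*-/- were next compared with VAS *Stra6*-/-, called the *Stra6*-/- diet comparison. All 8 genes were lower without overlap of the groups, where 26.8% of all genes were lower and 24.5% higher in this way. The limma fit called 28.8% of all genes lower and 24.4% higher, and of the 8 genes 7 lower (all but *Lcn2*) and none higher. The median log2 fold change over the 8 genes was -4.68, against -0.07 over all genes. This comparison shares no library with that in WT mice, but the members may have been chosen on it, so no p-value is given for them and nothing is read from these counts. The 4 groups shared an estimate of the spread, and the wide spread of VAD WT enters it.

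*Ltf* encodes lactoferrin, an iron-binding glycoprotein of tears, milk and neutrophil granules that withholds iron from bacteria. The gene lies on chromosome 9 from 111019271 to 111042767 (GRCm38, + strand). Its normalized value was 779, 952, 919, 760.0 and 840.0 in the VAS WT libraries and 92.0, 94.8, 89.4, 107 and 109 in VAD WT. It was 406, 364, 366, 393 and 328 in VAS *Stra6*-/- and 8.06, 3.61, 10.2, 13.2 and 11.8 in the samples labelled VAD *Stra6*-/-. The 4 groups followed each other in this order of levels, VAS WT, VAS *Stra6*-/-, VAD WT and labelled VAD *Stra6*-/-, with no overlap between any neighbours. The mean was 850 ± 84.3 (SD, n = 5) in VAS WT and 8.64-fold lower in VAD WT, at 98.5 ± 9.03 (SD, n = 5), or -3.10 on the log2 scale (SE 0.22). *Ltf* was the one gene of the 8 whose VAD WT libraries agreed closely although their epithelial markers did not: against VAS WT its log2 fold change was -3.12 without replicates 2 and 4 and -3.06 without replicates 1, 3 and 5. In the *Stra6*-/- diet comparison its mean was 39.6-fold lower, at 9.38 ± 3.75 against 371 ± 30.2 (SD, n = 5 each), with a log2 fold change of -5.26 (SE 0.22).

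*Lcn2* encodes lipocalin-2, which binds the siderophores through which bacteria take up iron and is induced in many tissues under inflammation. It lies on chromosome 2 from 32384633 to 32388252 (− strand). The normalized value was 201, 223, 213, 148 and 232 in VAS WT and 117, 237, 79.5, 181 and 37.7 in VAD WT. It was 402, 394, 396, 405 and 436 in VAS *Stra6*-/- and 280.1, 287, 348, 319.5 and 327 in the samples labelled VAD *Stra6*-/-. Unlike the other 7 genes, *Lcn2* was lowest in VAD WT, and both groups labelled *Stra6*-/- lay above all WT libraries. The VAD WT and VAS WT values overlapped: the mean was 1.56-fold lower in VAD WT, at 130 ± 79.4 against 204 ± 32.9 (SD, n = 5 each), with a log2 fold change of -0.88 (SE 0.31). This difference rested on replicates 1, 3 and 5, since VAS WT was 2.61-fold above their mean and 0.975-fold that of replicates 2 and 4. In the samples labelled VAD *Stra6*-/-, *Lcn2* was 1.30-fold lower than in VAS *Stra6*-/-, at 312 ± 28.4 against 407 ± 16.9 (SD, n = 5 each). All 5 libraries were lower, with a log2 fold change of -0.38 (SE 0.31).

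*Pglyrp1* encodes a peptidoglycan recognition protein that binds the bacterial cell wall and kills bacteria. It lies on chromosome 7 from 18871331 to 18890459 (+ strand). The normalized value was 6621, 6789.6, 6581, 6291 and 6607 in VAS WT and 5219, 2344, 5297, 2113 and 5432 in VAD WT. In VAS *Stra6*-/- it was 4124, 4179, 4464, 4304 and 4359, and in the samples labelled VAD *Stra6*-/- 183, 179.5, 177, 211 and 271. The VAD WT libraries lay on both sides of the VAS *Stra6*-/- ones, replicates 1, 3 and 5 above and replicates 2 and 4 below. In WT mice the mean was 1.61-fold lower on the VAD diet, at 4081 ± 1695 against 6578 ± 180 (SD, n = 5 each), with a log2 fold change of -0.81 (SE 0.21). Without replicates 2 and 4 of VAD WT it was -0.31, and without replicates 1, 3 and 5 it was -1.56. The samples labelled VAD *Stra6*-/- were 20.98-fold below VAS *Stra6*-/-, at 204 ± 39.5 against 4286 ± 137 (SD, n = 5 each), with a log2 fold change of -4.40 (SE 0.21).

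*Slpi* encodes the secretory leukocyte protease inhibitor, which protects mucosa from neutrophil elastase and is itself antimicrobial. It lies on chromosome 2 from 164354070 to 164389095 (− strand), and the microRNA gene *Mir7678* lies within it. Its normalized value was 44.2, 92.3, 68.1, 57.6 and 105 in VAS WT and 47.2, 43.3, 82.3, 27.4 and 54.6 in VAD WT. It was 78.2, 80.1, 56.9, 83.6 and 117 in VAS *Stra6*-/- and 14.1, 22.6, 38.9, 6.14 and 22.8 in the samples labelled VAD *Stra6*-/-. The first 3 of these groups overlapped each other. The mean in VAD WT, 50.9 ± 20.2, was 1.44-fold below that in VAS WT, 73.5 ± 25.04 (SD, n = 5 each), the smallest WT difference of the 8 genes. It was 1.198-fold for VAD WT replicates 1, 3 and 5 and 2.08-fold for replicates 2 and 4. The mean of the samples labelled VAD *Stra6*-/- was 3.98-fold below that of VAS *Stra6*-/-, at 20.9 ± 12.2 against 83.2 ± 21.6 (SD, n = 5 each), with a log2 fold change of -2.12 (SE 0.39).

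*Pigr* encodes the polymeric immunoglobulin receptor, whose cleaved outer part is released with IgA as the secretory component. It lies on chromosome 1 from 130826684 to 130852249 (+ strand). The normalized value was 229.7, 204, 234, 251 and 237 in VAS WT and 92.0, 62.8, 111, 39.4 and 133 in VAD WT. It was 227, 227, 139, 214 and 182 in VAS *Stra6*-/- and 1.01, 1.80, 5.12, 15.8 and 16.1 in the samples labelled VAD *Stra6*-/-. The VAS groups overlapped, and every VAD WT library lay below both of them and above every library labelled VAD *Stra6*-/-. In WT mice the mean was 2.64-fold lower on the VAD diet, at 87.5 ± 37.1 against 231 ± 17.1 (SD, n = 5 each), with a 4.52-fold difference for replicates 2 and 4 and a 2.07-fold one for replicates 1, 3 and 5. In the *Stra6*-/- diet comparison *Pigr* was 24.8-fold lower, at 7.96 ± 7.44 against 198 ± 37.5 (SD, n = 5 each), with a log2 fold change of -4.96 (SE 0.48).

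*Olfm4* encodes olfactomedin-4, a secreted glycoprotein of mucus, crypt cells and a subset of neutrophils. It lies on chromosome 14 from 79984081 to 80023139 (+ strand) and overlaps the non-coding *Gm6999* on the same strand. The normalized value was 278, 193, 289.9, 205 and 198 in VAS WT and 7.07, 42.2, 15.6, 39.4 and 16.9 in VAD WT. It was 283, 239, 266, 253 and 241 in VAS *Stra6*-/-, and 10.1, 0, 20.5, 0 and 0 in the samples labelled VAD *Stra6*-/-. The groups fell into a high pair on the VAS diet and a low pair on the VAD diet, each pair overlapping within itself. The WT mean was 9.60-fold lower on the VAD diet, at 24.2 ± 15.6 against 233 ± 47.0 (SD, n = 5 each), the largest WT difference of the 8 genes, with a log2 fold change of -3.45 (SE 0.70). Here VAD WT replicates 2 and 4 lay above the other replicates, the reverse of *Pglyrp1* and *Pigr*, and the difference from VAS WT was 5.71-fold for them and 17.6-fold for replicates 1, 3 and 5. Against VAS *Stra6*-/-, the samples labelled VAD *Stra6*-/- were 42.0-fold lower, at 6.11 ± 9.14 against 257 ± 18.6 (SD, n = 5 each), with a log2 fold change of -6.43 (SE 0.70). Without replicate 3 of that group, its highest, the log2 fold change was -7.14.

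*Clca3b* and *Clca3a2* belong to the calcium-activated chloride channel regulator family, secreted or shed metalloproteases of mucosal epithelia. Both lie on the − strand of chromosome 3, *Clca3b* from 144822623 to 144849357 and *Clca3a2* from 144796559 to 144819494. *Clca3b* overlaps the pseudogene *Gm16215* and *Clca3a2* the antisense gene *Gm43240*. Of all stretches of 31 bases in *Clca3a2* transcripts, 34.4% were also in *Clca3a1* and 9.78% in *Clca3b*, and 13.1% of those of *Clca3b* were in *Clca3a2*, so the division of reads among these 3 paralogs by the authors' counting is uncertain. The normalized value of *Clca3b* was 333, 415, 264, 310.2 and 340.1 in VAS WT and 66.0, 19.6, 104, 5.14 and 71.5 in VAD WT. It was 122, 123, 156, 139 and 118 in VAS *Stra6*-/- and 0, 2.71, 3.07, 0 and 3.38 in the samples labelled VAD *Stra6*-/-. As for *Ltf*, the 4 groups did not overlap and had the same order. The WT mean was 6.25-fold lower on the VAD diet, at 53.2 ± 40.2 against 332 ± 55.1 (SD, n = 5 each). The log2 fold change of -3.18 (SE 0.60) was -2.05 without VAD WT replicates 2 and 4 and -4.88 without replicates 1, 3 and 5. Between the samples labelled VAD *Stra6*-/- and VAS *Stra6*-/- it was 71.7-fold lower, at 1.83 ± 1.69 against 131 ± 15.6 (SD, n = 5 each), with a log2 fold change of -5.83 (SE 0.60).

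*Clca3a2* was the least abundant of the 8 genes. It had 15.7 to 60.5 in VAS WT, 0 to 40.1 in VAD WT and 4.07 to 15.9 in VAS *Stra6*-/-, and no read in any of the 5 samples labelled VAD *Stra6*-/-. A count of 0 allows up to 3 reads in a library, or a normalized value of 2.54 to 3.07 there, for counting error only. The WT groups overlapped, with means of 32.4 ± 17.0 on the VAS and 14.5 ± 15.4 on the VAD diet (SD, n = 5 each), a 2.23-fold difference that was 1.48-fold for VAD WT replicates 1, 3 and 5 and 9.46-fold for replicates 2 and 4. In the *Stra6*-/- diet comparison it was at least 3.26-fold lower, against a floor of 3 reads in each library. Its paralog *Clca3a1* went the other way in this comparison, from 33.1 ± 7.47 to 98.4 ± 19.9 (SD, n = 5 each), with a log2 fold change of 1.55 (SE 0.31, limma adjusted p = 0.000205).

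**Figure D3:**
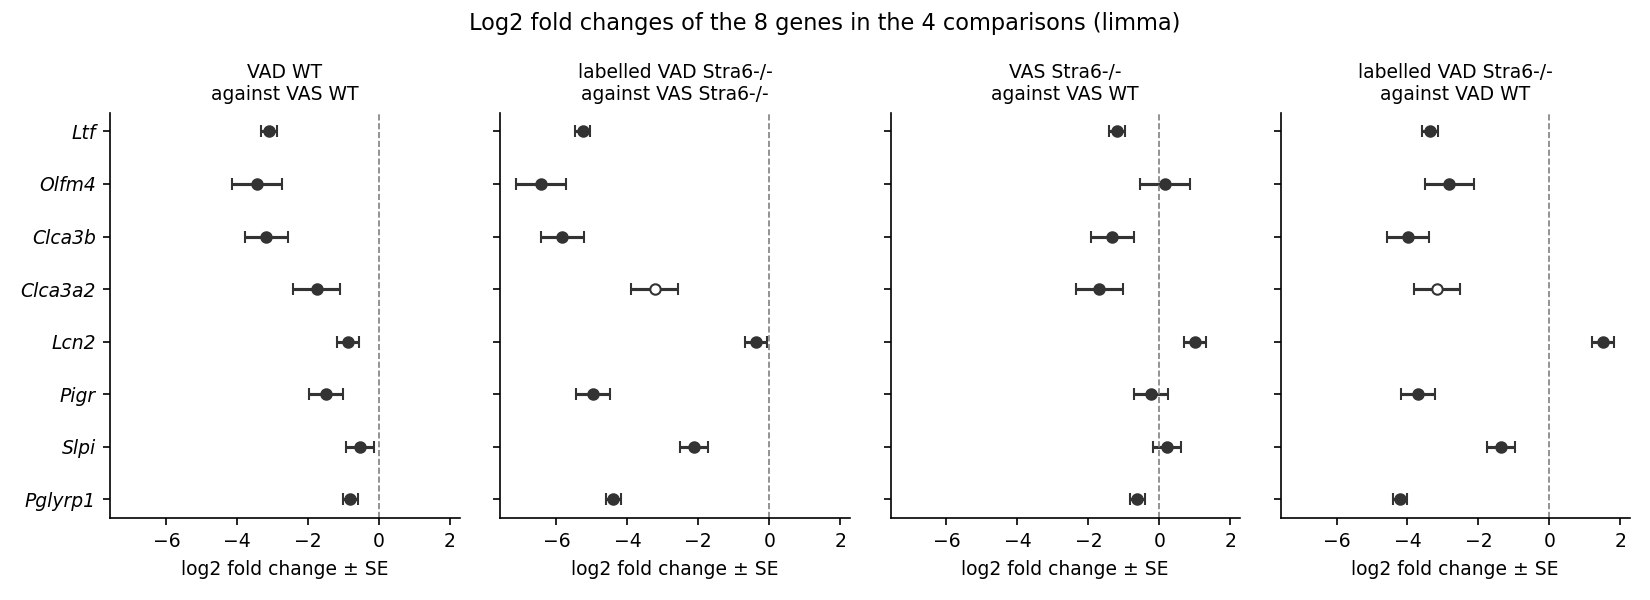
Log2 fold change with its standard error (horizontal axis, limma on log2(value + 1)) of the 8 genes in the 4 comparisons. Open circles mark Clca3a2 where 1 group had no read, whose fitted value depends on the added 1. In the second panel 7 genes lie between -6.43 and -2.12 and Lcn2 at -0.38.

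On the VAS diet, 2 of the 8 genes fell and 1 rose in *Stra6*-/- against WT mice, against 10.8% of all genes called lower and 15.9% called higher. Without overlap 3 genes were lower and 1 higher, against 13.2% and 19.3% of all genes. This comparison shares the VAS WT libraries with the WT diet comparison and the VAS *Stra6*-/- libraries with the *Stra6*-/- one, on either of which the genes may have been chosen. The counts and p-values of the 8 genes here are therefore not free of that choice. *Ltf* fell 2.29-fold, with a log2 fold change of -1.19 (SE 0.22, limma adjusted p = 0.000356). *Pglyrp1* fell 1.53-fold, with a log2 fold change of -0.62 (SE 0.21, limma adjusted p = 0.0332), a call that was lost on leaving out any 1 library of these 2 groups, at adjusted p of 0.0536 to 0.0668. *Lcn2* rose 1.998-fold, with a log2 fold change of 1.01 (SE 0.31, limma adjusted p = 0.0188), and had an adjusted p of 0.0559 without VAS WT replicate 4. *Clca3b* was 2.53-fold lower without overlap and *Clca3a2* 3.56-fold lower with overlap, at adjusted p of 0.111 and 0.0649 (limma). Both passed with DESeq2 on the recovered reads, at adjusted p of 0.00859 and 0.0363, and with these 2 groups alone in the limma fit. *Olfm4*, *Pigr* and *Slpi* had log2 fold changes of 0.16, -0.24 and 0.21 with standard errors of 0.70, 0.48 and 0.39 and did not pass (adjusted p = 0.902, 0.761 and 0.752, limma). Surface epithelium markers were mostly higher here, with 17 of 25 called higher and none lower by limma, while of the 21 goblet and mucosal markers 6 fell and 1 rose.

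On the VAD diet, the samples labelled VAD *Stra6*-/- had lower values than VAD WT for 7 of the 8 genes and a higher value for *Lcn2* (limma, adjusted p under 0.05), with a background of 29.6% called lower and 26.2% called higher. The VAD WT libraries are shared with the WT diet comparison, and the samples labelled VAD *Stra6*-/- with the *Stra6*-/- one. A choice of genes on low values in the labelled samples would by itself favour lower values here. The counts and p-values of the 8 genes are therefore a description and no independent test. Without overlap, 4 genes (*Ltf*, *Clca3b*, *Pigr* and *Pglyrp1*) were lower and *Lcn2* higher, against 19.0% and 18.3% of all genes. *Ltf* fell 10.5-fold (log2 fold change -3.36, SE 0.22, limma adjusted p = 3.45e-11) and *Pglyrp1* fell 19.98-fold (-4.21, SE 0.21, limma adjusted p = 3.89e-13). *Pigr* fell 10.99-fold (-3.69, SE 0.48, limma adjusted p = 9.9e-07) and *Clca3b* 29.0-fold (-3.98, SE 0.60, limma adjusted p = 7.43e-06). *Olfm4* fell 3.97-fold, with a log2 fold change of -2.82 (adjusted p = 0.00168, limma). It was -3.53 without replicate 3 labelled VAD *Stra6*-/-, -2.16 without VAD WT replicates 2 and 4 and -3.81 without replicates 1, 3 and 5 (adjusted p = 4.43e-05, 0.0191 and 0.00172, limma). *Slpi* fell 2.44-fold (adjusted p = 0.00503, limma), and *Clca3a2* was at least 5.19-fold lower (adjusted p = 0.000346, limma). *Lcn2* rose 2.40-fold, with a log2 fold change of 1.51 (SE 0.31, limma adjusted p = 0.000275). That of *Lcn2* was 2.13 without VAD WT replicates 2 and 4 and 0.59 without replicates 1, 3 and 5 (adjusted p = 5.82e-08 and 0.00308, limma). Without VAD WT replicates 1, 3 and 5, *Slpi* and *Clca3a2* did not pass, at adjusted p of 0.144 and 0.064 (limma).

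The *Stra6*-/- diet difference, as labelled, minus that in WT mice is given without a test, because either of them may have chosen the genes. On the log2 scale it was -3.59 for *Pglyrp1* (SE 0.30), -3.45 for *Pigr* (0.67), -2.98 for *Olfm4* (0.99), -2.65 for *Clca3b* (0.84), -2.16 for *Ltf* (0.31) and -1.58 for *Slpi* (0.55). For *Lcn2* it was 0.50 (0.44). The size of the difference was not alike in the 2 diet comparisons: *Pglyrp1* was 1.61-fold lower in WT mice and 20.98-fold in the other, while *Olfm4* was 9.60-fold and 42.0-fold lower. For *Lcn2* and *Clca3a2* the sign depended on the VAD WT libraries used.

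Levels were compared between genes after division by exonic length. Per kb, *Pglyrp1* was by far the most abundant in VAS WT, at 3581, followed by *Ltf* at 246, *Clca3b* at 98.9, *Olfm4* at 78.6, *Lcn2* at 77.6, *Slpi* at 62.3, *Pigr* at 57.4 and *Clca3a2* at 8.15. In VAS *Stra6*-/- *Lcn2*, at 155, had moved to the place after *Pglyrp1*, at 2333, and *Ltf* followed at 108. In VAD WT *Pglyrp1* was at 2222, *Lcn2* at 49.7, *Slpi* at 43.2 and *Ltf* at 28.5. In the samples labelled VAD *Stra6*-/-, *Lcn2* at 119 and *Pglyrp1* at 111 were the most abundant, and *Slpi* at 17.7 was the only other gene above 3 per kb.

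The 8 genes were next set against the epithelial markers of the same library, as the log2 value of the gene minus the mean log2 value of the list. This mean weighs each listed gene alike, whereas the sums above follow the abundant ones. For goblet and mucosal markers, VAD WT replicates 2 and 4 had sums of 44301 and 44084, below all VAS WT libraries. Their mean log2 values, 7.43 and 7.40, lay within the VAS WT range of 7.12 to 7.63. The relative values therefore depend on this measure, and none were computed against the sums. In WT mice, all 8 genes were lower on the VAD diet relative to the 25 surface epithelium markers, from -0.38 for *Slpi* to -3.29 for *Olfm4*, and 5 of them had no overlap. The genes were selected on lower values under this diet, so the relative values here and below are descriptions and no test. The share of all genes that is lower by this measure was not computed. *Ltf* differed by -2.94 relative to surface epithelium and by -2.71 relative to the 21 goblet and mucosal markers, against -3.10 as deposited. *Olfm4*, at -3.06, and *Clca3b*, at -2.79, also did not overlap relative to the goblet and mucosal list, while the other 5 genes did. For the samples labelled VAD *Stra6*-/- against VAS *Stra6*-/-, relative to surface epithelium, *Pglyrp1* differed by 0.30, *Pigr* by -0.25, *Ltf* by -0.56 and *Olfm4* by -1.72, all with overlap, and *Clca3b* by -1.13 without overlap. In the labelled samples *Clca3b* had at most 4 reads in a library, and *Olfm4* had none in 3 of the 5. Their relative values against both lists therefore depend on the added 1, and no other pseudocount was tried for relative values. *Lcn2* and *Slpi* were higher relative to that list in all samples labelled VAD *Stra6*-/-, by 4.32 and 2.59. Relative to goblet and mucosal markers, *Olfm4* differed by -4.01, *Clca3b* by -3.42, *Ltf* by -2.85, *Pigr* by -2.54 and *Pglyrp1* by -1.99, each without overlap. *Lcn2* was higher by 2.03 without overlap, *Slpi* differed by 0.30 with overlap, and *Clca3a2*, with no read in the labelled VAD group, is left out. In the same comparison 25 of 25 surface epithelium markers, 13 of 21 goblet and mucosal markers and 9 of 10 cornea markers fell (limma), beside 28.8% of all genes. The part of these markers in the lower values of the 8 genes was not tested.

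**Figure D4:**
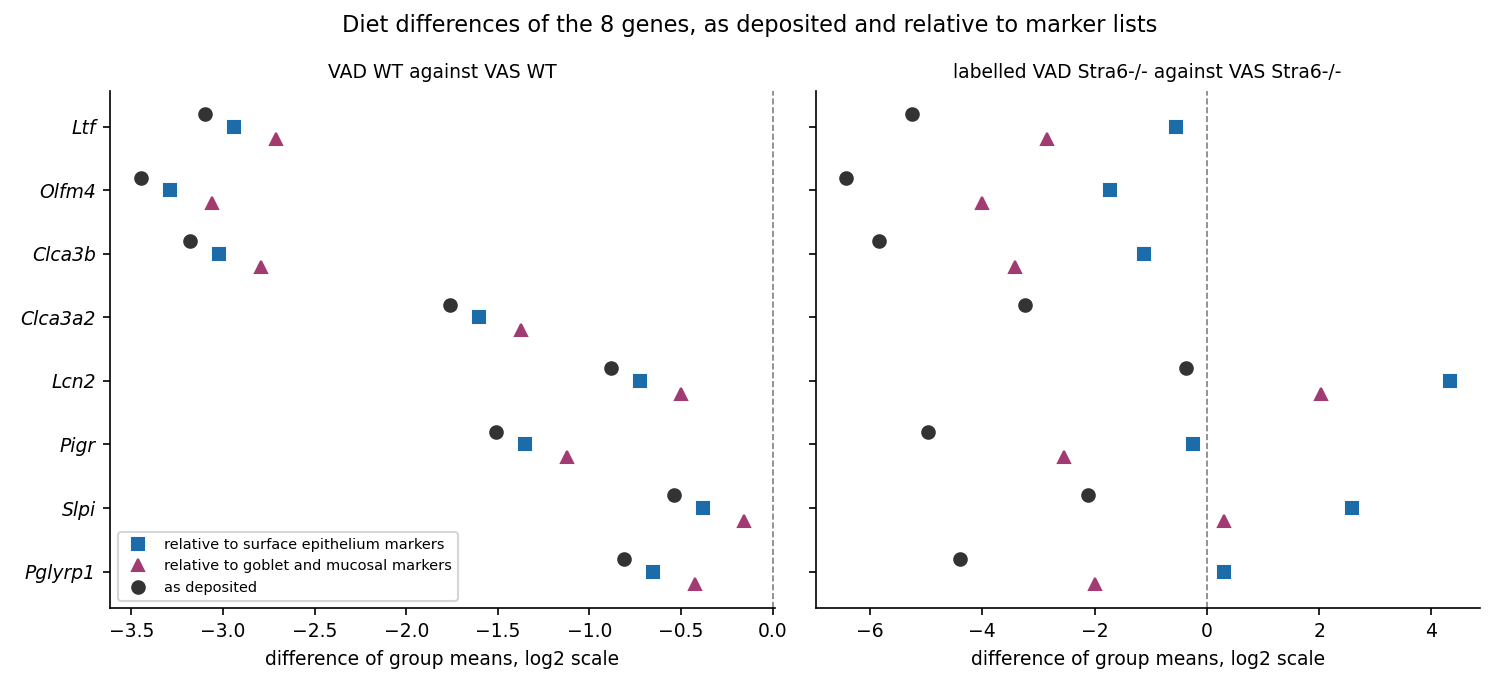
Difference between VAD and VAS group means on the log2 scale (horizontal axis) for each gene, as deposited (circles) and relative to the mean log2 value of surface epithelium markers (squares) or goblet and mucosal markers (triangles). Clca3a2 has no relative value on the right, where 1 group had no read. Clca3b and Olfm4 had few or no reads in that group, so their values on the right depend on the added 1. On the right Lcn2 and Slpi lie at 4.32 and 2.59 relative to surface epithelium.

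Relatives of the 8 genes moved in both directions. Of 23 measured relatives, 5 fell and 1 rose in VAD WT against VAS WT (limma), beside 5.50% and 3.29% of all genes. In the samples labelled VAD *Stra6*-/- against VAS *Stra6*-/-, 7 fell and 8 rose (limma). There 28.8% of all genes were called lower and 24.4% higher, so nothing particular to the relatives is read from these counts. *Pglyrp4*, another peptidoglycan recognition protein, fell with *Pglyrp1*, from 516 ± 38.9 in VAS WT to 136 ± 62.7 in VAD WT (SD, n = 5 each, log2 fold change -2.03, adjusted p = 0.00263, limma). It was 410 ± 53.5 in VAS *Stra6*-/- and 14.5 ± 10.3 in the samples labelled VAD *Stra6*-/- (SD, n = 5 each, log2 fold change -5.07, adjusted p = 8.18e-10, limma). *Clca2* and *Clca4a* fell in the *Stra6*-/- diet comparison by 5.12 and 5.62 on the log2 scale (adjusted p = 9.41e-13 and 1.16e-07, limma), and in WT mice had log2 fold changes of -0.42 and 0.17 that did not pass (adjusted p = 0.409 and 0.920, limma). *Clca1* and *Clca4b* also fell there, from low means of 8.63 and 4.65 to 0 (adjusted p = 2.61e-06 and 0.0174, limma). In WT mice neither passed (adjusted p = 0.234 and 0.495, limma). *Clca3a1* alone of the *Clca* relatives named here rose in that comparison. These *Pglyrp* and *Clca* relatives were named for their kinship, after their values had been seen. The most abundant relatives were *Trf*, which encodes the iron carrier transferrin as kin of lactoferrin, and *Ptgds*, a lipocalin that makes prostaglandin D2. Both fell in VAD WT, with log2 fold changes of -1.64 and -1.16 (adjusted p = 5.03e-06 and 2.63e-06, limma). In the samples labelled VAD *Stra6*-/- both rose, with log2 fold changes of 3.42 and 1.496 (adjusted p = 1.76e-12 and 1.98e-09, limma), as 14 of 15 RPE markers did.

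Of 15 measured partners and receptors of these proteins, 4 fell and none rose in WT mice on the VAD diet, and 2 fell and 7 rose in the *Stra6*-/- diet comparison (limma). The shares of all genes called lower and higher were 5.50% and 3.29% in WT mice and 28.8% and 24.4% in the other comparison. *Lrp2* (megalin), an endocytic receptor that takes up lipocalins and many other ligands, fell in WT mice, with a log2 fold change of -1.41 (adjusted p = 6.16e-09, limma). It rose in the *Stra6*-/- diet comparison, with a log2 fold change of 1.49 (adjusted p = 5.23e-11, limma). *Slc22a17*, the lipocalin-2 receptor, had log2 fold changes of -0.41 and 0.91 (adjusted p = 0.00186 and 3.79e-09, limma). *Grn*, a precursor that SLPI protects from cleavage, had -0.07 in WT mice, which did not pass (adjusted p = 0.560, limma), and rose by 0.65 in the *Stra6*-/- diet comparison (adjusted p = 2.44e-08, limma).

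Of 30 measured further secreted antimicrobial genes, 3 fell and 2 rose in WT mice and 6 fell and 11 rose in the *Stra6*-/- diet comparison (limma), a median log2 fold change of -0.21 and 0.61. Beside them, 5.50% of all genes were called lower and 3.29% higher in WT mice, and 28.8% and 24.4% in the other comparison. The macrophage lysozyme *Lyz2* fell in WT mice, with a log2 fold change of -1.23, and rose in the *Stra6*-/- diet comparison, with 1.37 (adjusted p = 0.000471 and 8.30e-06, limma). *Pla2g5*, a secreted phospholipase, fell and rose likewise, with -0.75 and 1.69 (adjusted p = 0.00200 and 2.50e-09, limma). The epithelial defensin *Defb1* had a log2 fold change of 0.01 in WT mice (adjusted p = 1, limma) and fell by 3.87 in the *Stra6*-/- diet comparison (adjusted p = 4.65e-11, limma).

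Neutrophils are the other known source of several of these proteins. The 17 listed markers in the table summed to 701.9 to 883 in VAS WT, 401 to 669 in VAD WT, 637 to 806 in VAS *Stra6*-/- and 577 to 661 in the samples labelled VAD *Stra6*-/-. The granule genes *Mpo* and *Fcnb* were at 0 in every library, and *Elane* in every WT library. Others were present, with *Il1r2* at 354 ± 63.8 in VAS WT and *S100a9* at 199 ± 41.1 in VAS *Stra6*-/- (SD, n = 5 each). Over the 20 libraries *Lcn2* had r = 0.73 with the mean log2 value of this list, against -0.69 to -0.16 for the other 7 genes, as a description. This was not particular to neutrophils. *Lcn2* had r = 0.68 with other secreted antimicrobial genes, 0.66 with RPE markers, 0.59 with partners and receptors and 0.56 with lacrimal and meibomian markers. The part of neutrophils in the *Lcn2* values was not tested. Of 15 measured markers, 3 fell in WT mice (*Il1r2*, *S100a9* and *Csf3r*), with log2 fold changes of -1.54, -1.83 and -0.99 (adjusted p = 5.50e-06, 0.00674 and 0.0106, limma). In the *Stra6*-/- diet comparison 1 fell and 2 rose. Of the 20 lacrimal and meibomian markers in the table, 6 (*Scgb1b20*, *Scgb2b20*, *Scgb2b26*, *Pip*, *Prol1* and *Lcn11*) were at 0 in every library. Others were present, with mean values in VAS WT of 26823 for *Aqp5* and 183 for *Car6*. In the *Stra6*-/- diet comparison they had log2 fold changes of -6.60 and 0.96 (adjusted p = 8.26e-14 and 0.0148, limma). Of 13 measured lacrimal and meibomian markers 1 fell in WT mice and 2 fell and 3 rose in the *Stra6*-/- diet comparison (limma). Over all genes, 5.50% fell and 3.29% rose in WT mice, against 28.8% and 24.4% in the other comparison.

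Of 25 genes known to induce mucosal defense, 15 fell and 4 rose in the *Stra6*-/- diet comparison (limma, median log2 fold change -0.74), beside 28.8% and 24.4% of all genes. In WT mice 4 fell and none rose, beside 5.50% and 3.29% of all genes. The epithelial factors *Elf3* and *Ehf* fell by 4.89 and 5.52 on the log2 scale (adjusted p = 2.18e-15 and 1.44e-16, limma), and in WT mice had log2 fold changes of -0.48 and -0.04 that did not pass (adjusted p = 0.112 and 0.922, limma). *Cebpd*, an acute phase regulator, and *Stat3* rose in VAS *Stra6*-/- against VAS WT, with log2 fold changes of 1.55 and 1.05 (adjusted p = 0.00539 and 2.80e-07, limma). In that comparison 12 of the 25 inducers rose and 1 fell, beside 15.9% and 10.8% of all genes. Of 14 measured retinoic acid target genes, 3 fell in WT mice and 4 fell and 5 rose in the *Stra6*-/- diet comparison. *Lrat*, which stores vitamin A as ester and is also an RPE marker, had log2 fold changes of -1.88 and 2.93 (adjusted p = 1.44e-05 and 7.35e-10, limma).

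In WT mice, 8 of 21 goblet and mucosal markers fell and none rose (limma), beside 5.50% and 3.29% of all genes. The conjunctival keratin *Krt4* fell from 41283 ± 2014 to 11146 ± 606 and *Krt19* from 13612 ± 821 to 4390 ± 1440 (SD, n = 5 each), with log2 fold changes of -1.89 and -1.70 (adjusted p = 1.19e-11 and 2.54e-06, limma). *Krt13* and the membrane mucin *Muc4* fell by 1.01 and 1.06 on the log2 scale (adjusted p = 0.000168 and 0.000541, limma). Of 25 surface epithelium markers 3 fell and none rose. *Krt5* and the corneal keratin *Krt12* had log2 fold changes of 0.15 and 0.54 that did not pass (adjusted p = 0.790 and 0.320, limma).

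Across the 20 libraries the genes whose log2 values were most like the mean standardized pattern of the 8 were *Muc1*, a membrane mucin (Pearson r = 0.986), *Krt17* (0.982), *Tspan1* (0.981), *Slc6a14* (0.979) and *Paqr8* (0.979), as a description over libraries that share tissue content and size factors. *Muc1* was at 2673 in VAS WT, 651 in VAD WT, 2051 in VAS *Stra6*-/- and 90.2 in the samples labelled VAD *Stra6*-/-. Among the 8 genes, 21 of 28 pairs had r above 0.5, with a median of 0.79, whereas every pair with *Lcn2* lay between -0.37 and 0.16. Within groups, as deviations from the group means, 5 of 28 pairs had r above 0.5, with a median of 0.09. *Clca3b* and *Pglyrp1* had the highest within-group value, 0.77, and *Lcn2* and *Pglyrp1* the lowest, -0.71.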

How the data were processed

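RNA-seq data of 20 RPE-choroid samples, 5 in each of 4 groups given by the labels, were used. Per the submitters' processing notes the tools were STAR 2.5.3a, RSEM 1.2.30 and DESeq2 1.32.0, with GRCm38. The authors deposited a signal for each gene, the RSEM count divided by a size factor of that sample from DESeq2, with neither length nor log scaling. In 19 libraries the values were whole multiples (within 0.01) of that of 1 read, in 100.0% of values. In replicate 1 labelled VAD *Stra6*-/- that value is so near 1 that reads were not recovered for the tests on counts, which have 4 libraries in that group. Its smallest value served as 1 read for depth, the filter and the floor of 3 reads. No deposited column was left out.

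Genes with at least 5 reads in total (18807) were compared with limma 3.58.1 in R 4.3.3 on log2(value + 1), in a model of group means with an intensity trend. All 20 libraries entered it, and p-values were adjusted over all genes by the Benjamini-Hochberg method. A gene was called at an adjusted p under 0.05. Alternatives were pseudocounts of 0.5 and 4, no filter, a mean of at least 10, TMM rescaling, edgeR 4.0.16 and DESeq2 1.42.0 on the recovered reads, only the groups compared, a replicate block and leaving out libraries. Each fit was first tested on simulated data. A group at 0 was given a floor of 3 reads per library. Floors cover counting error only. No 2 libraries of a group agreed within counting noise. By the study's account each sample is a separate mouse, but the samples labelled VAD *Stra6*-/- each held both *Xist* and *Ddx3y*. The VAD WT libraries also held both, less evenly. Both diet comparisons are given for the members without p-values. The genotype comparisons share libraries with them, so the p-values given there for members are not free of the choice of members. Whether counting used strand is not given in the sources used here, so reads of overlapping genes cannot be told apart.

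The members and all gene lists were chosen with earlier results of these data known. Beside the members, up to 4 genes of each list with the highest mean value were named, as were the 5 genes most like the members, *Stra6* and sex-linked genes. Relatives of over 80% protein identity were to be named too, but protein sequences were not used here. Gene positions are from GENCODE vM21 and promoter windows from RefSeq, in which all 8 members were matched. Values were set per kb of exonic length from GENCODE for levels between genes only. The values of 1 listed gene and 1 promoter window are not reported here.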

Additional observations from a re-analysis of the deposited data

Results flagged for a closer look

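In VAS *Stra6*-/- the *Lcn2* value of replicate 5, 436, stood above the other libraries, which lay between 394 and 405. The gap to its neighbour was 0.726 of the whole range of the group. Of 31 sets of 5 libraries looked at in this way (8 genes in 4 groups, without the group in which *Clca3a2* had no read), this was the only such library, and chance alone picks about 5% of sets.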

How the results depend on the processing

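Of 1232 recomputed values of single genes, 1182 kept their direction and their side of the threshold or, without a test, moved by less than the spread between replicates. 13 calls were lost, 16 were gained, 18 values moved further and 3 changed sign. All 3 arose without VAD WT replicates 1, 3 and 5, an alternative chosen after seeing the data: the WT diet difference of *Lcn2* became 0.04, and the difference between the diet effects became 0.21 for *Clca3a2* and -0.42 for *Lcn2*. The number of members called lower in VAS *Stra6*-/- against VAS WT was 2 in the fit reported and 4 with a pseudocount of 4, with DESeq2, with only these 2 groups in the fit, without VAD WT replicates 2 and 4 and without VAD WT replicates 1, 3 and 5. On leaving out 1 library at a time it ranged from 1 to 3. It was 1 without any of the 10 libraries of these 2 groups. The number called higher there ranged from 0 to 1, and was 0 without VAS WT replicate 4, where limma gave *Lcn2* an adjusted p of 0.0559. Members called lower numbered 4 to 6 over all alternatives in WT mice, 7 to 8 between the samples labelled VAD *Stra6*-/- and VAS *Stra6*-/-, and 5 to 7 between the former and VAD WT. Over all genes, 1034 were called lower and 618 higher in VAD WT against VAS WT. These were 438 and 201 with only these groups in the fit, 1082 and 1059 with DESeq2, 3818 and 3306 without VAD WT replicates 2 and 4, and 2947 and 3217 without replicates 1, 3 and 5. Without VAD WT replicate 2 or replicate 4 alone, 1061 and 1180 were higher. In VAS *Stra6*-/- against VAS WT, 2026 were lower and 2984 higher, against 3671 and 4537 with only these groups in the fit. There 3299 were lower without VAD WT replicates 2 and 4 and 3452 without replicates 1, 3 and 5. The causes were not tested. Between the samples labelled VAD *Stra6*-/- and VAS *Stra6*-/-, edgeR on the recovered reads called 5029 lower and 4426 higher, against 5408 and 4596.

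With the replicate number as a block, 4, 7, 2 and 7 members were called lower and 0, 0, 1 and 1 higher in the WT diet, *Stra6*-/- diet, VAS and VAD comparisons, as without it. The numbers did not pair the samples, since deviations of same-numbered libraries correlated at -0.134 to 0.0988 over 30 pairs of groups and numbers. Depth limited *Clca3a2* most, which had at most 63 reads in a library, and the low values of *Olfm4*, *Clca3b* and *Pigr* in the samples labelled VAD *Stra6*-/-.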
